A study of Mus musculus with 24 samples.

Results

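The genes described here are 60 named genes of mouse chromosome 14 that carry out general cell work, such as DNA repair, transcription, nuclear transport, protein turnover, cell division and signalling. They were taken by name, as a list drawn up with earlier results of these data known, from 21878 genes counted in all libraries. All 60 were placed on chromosome 14, where they make up 7.67% of the 782 counted genes placed there, and all 60 had enough counts to be tested among 13121 genes. They were chosen by each gene's measured log2 ratio to thymus, over all lymphomas and by Ikzf1 set, so the comparisons of members with thymus and between the sets are descriptions.

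Poly(A) RNA was sequenced from 21 thymic lymphomas of female B6C3F1 mice, hybrids used in radiation carcinogenesis, and from 3 normal thymus samples. The lymphomas followed 4 weekly whole-body doses of 1.6 Gy carbon ions, begun when the mice were 4 to 5 weeks old, and they fall into 11 lymphomas in the authors' Ikzf1-mutated set and 10 in the unmutated set. Ikzf1 encodes Ikaros, a transcription factor of lymphocyte development. The thymus titles read 7W and normal, with no other age given, yet their treatment label is the one the lymphomas carry, and no label ties a lymphoma to an animal. RNA came from single-cell suspensions, and all samples share 1 batch date.

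Housekeeping genes are needed by nearly every cell and are often treated as steady references. A few of the genes here do more specific work: Rb1 encodes a tumour suppressor that holds cells before DNA synthesis, Prmt5 an arginine methyltransferase that modifies histones and splicing proteins, and Ripk3 a kinase that starts necroptosis, a regulated form of cell death.

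Library totals, in units of 1000000 counts, were 15 to 36.56 in lymphomas (23.48 ± 6.36, SD, n = 21) and 24.54 to 27.54 in thymus. The 60 genes took 0.831% to 1.229% of the counts of a lymphoma and 0.851% to 0.859% of those of a thymus library. Of 10 thymocyte markers, 6 were lower in lymphomas, with summed levels of 2713 to 8283 CPM (counts per 1000000) against 12038 to 13262 CPM in thymus. Macrophage markers were higher for 10 of 11 genes (sums of 186 to 688 CPM in lymphomas and 95.6 to 133 CPM in thymus) and fibroblast markers for 6 of 7 (23.4 to 1014 CPM and 3.55 to 7.07 CPM). Thymic epithelial and neutrophil markers were lower for all 7 tested genes of each list, with sums of 4.17 to 12.4 CPM against 27.9 to 72.4 CPM and of 0.229 to 36.7 CPM against 53.9 to 99.1 CPM. Of the other lists, no B cell marker passed, 1 dendritic cell marker was lower and 1 erythroid marker higher. None of the markers was at 0 in every library of a group, and the part of these cell types in the values below was not tested. In bulk RNA, fewer cells of a type and less RNA per cell cannot be told apart.

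In lymphomas against thymus, 12 of the 60 genes were higher and 6 lower at an adjusted p below 0.05 (quasi-likelihood test of edgeR, with p adjusted over all genes by Benjamini and Hochberg). Among all genes tested, 15.4% were higher and 15.4% lower (30.8% either way), and since the list was drawn up with this contrast in view, nothing is read from the count. The higher genes were Abhd4, Xpo4, Ipo5, Ctsb, Prmt5, Cdca2, Apex1, Xpo7, Elp3, Polr3d, Gtf2f2 and Esd. The lower genes were Rabggta, Tinf2, Reep4, Lrp10, Rnf31 and Mphosph8. The median log2 fold change of the 60 genes was 0.10, against 0.15 over 377 other tested genes of chromosome 14, of which 77 were higher and 42 lower, and 0.07 over all genes. All 21 lymphomas lay above all 3 thymus libraries for 5 of the 60 genes (Abhd4, Ctsb, Elp3, Polr3d and Prmt5) and below them for 1 (Rabggta), where 6.33% and 7.93% of all genes tested did so.

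**Figure D1:**
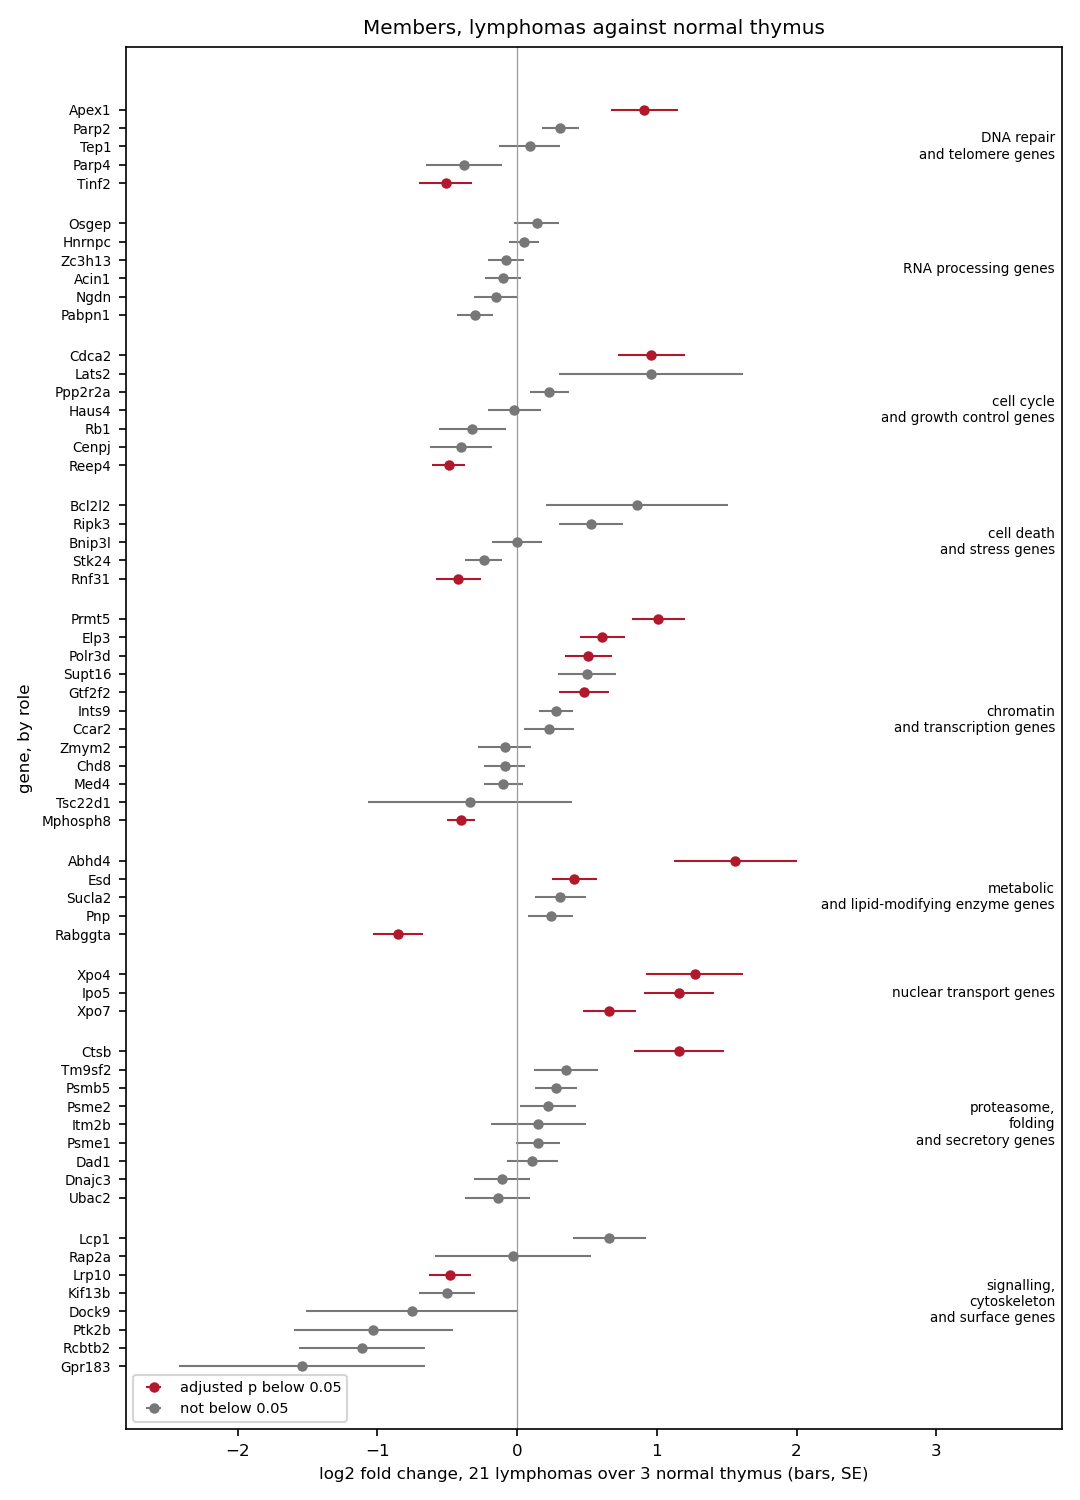
Log2 fold change of the 60 genes, 21 lymphomas over 3 normal thymus libraries, by role, with standard errors as bars; red points had an adjusted p below 0.05. The 3 nuclear transport genes are all red and above 0, while the signalling genes reach down to -1.54 with wide bars.

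Among the 3 nuclear transport genes, all were higher in lymphomas, with a median log2 fold change of 1.16. Ipo5 encodes an importin that carries ribosomal proteins and histones into the nucleus. Ipo5 ranged from 242 CPM in lymphoma 7 over a median of 528 CPM to 889 CPM in lymphoma 30, and had 250, 189 and 278 CPM in thymus. That is a log2 fold change of 1.16 ± 0.25 (SE), and 20 of 21 lymphomas lay above every thymus library. Xpo4, an exportin, ranged from 30.2 to 144 CPM in lymphomas around a median of 81.7 CPM and had 42, 21.5 and 43.6 CPM in thymus. The second thymus library was the low one, and the log2 fold change of Xpo4 was 1.27 ± 0.35 (SE). Xpo7, a transport receptor with broad cargo, ranged from 163 to 374 CPM around 232 CPM in lymphomas, against 165, 122 and 164 CPM in thymus, a log2 fold change of 0.66 ± 0.19 (SE). Lymphoma 7 was the lowest lymphoma for Ipo5 and Xpo7, inside the thymus range. The calls of Xpo4 and Xpo7 were lost without the second thymus library.

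Of 12 chromatin and transcription genes, 4 were higher, 1 lower and 7 not past the threshold, with a median log2 fold change of 0.26. Prmt5 ranged from 171 CPM in lymphoma 9 over a median of 227 CPM to 371 CPM in lymphoma 30, against 118, 108 and 128 CPM in thymus. No lymphoma came down to the thymus range, and the log2 fold change was 1.01 ± 0.19 (SE). Elp3, the catalytic subunit of the Elongator complex that modifies tRNA, ranged from 97.3 to 206 CPM around 134 CPM in lymphomas and had 91.1, 89.7 and 93.6 CPM in thymus. The groups did not overlap, and the log2 fold change was 0.61 ± 0.16 (SE). Polr3d, a subunit of the RNA polymerase that makes tRNAs, and Gtf2f2, a subunit of the transcription factor TFIIF, had log2 fold changes of 0.51 ± 0.17 and 0.48 ± 0.18 (SE). Without lymphomas 12, 20, 30 and 32, Gtf2f2 no longer passed, at 0.41 ± 0.16 (SE). The calls of Polr3d and Gtf2f2 without single libraries or with other methods are not given. Mphosph8, part of the HUSH complex that silences transposons, was the lower one: it ranged from 57.7 to 87.8 CPM around 67 CPM in lymphomas and had 84, 102 and 81.6 CPM in thymus. Mphosph8 had a log2 fold change of -0.40 ± 0.10 (SE), 20 of 21 lymphomas lay below every thymus library, and its call was lost without the second thymus library. Supt16, a histone chaperone subunit of FACT, Ints9 of the Integrator complex and Ccar2, an inhibitor of the deacetylase SIRT1, had log2 fold changes of 0.50, 0.28 and 0.23 without passing the threshold. Zmym2, Chd8, a chromatin remodeller, and Med4 of the Mediator complex lay within 0.10 of 0, and Tsc22d1, a transcriptional regulator, had -0.34 ± 0.73 (SE).

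Of 5 DNA repair and telomere genes, 1 was higher and 1 lower. Apex1 encodes the main endonuclease that cuts DNA at lost bases during base excision repair. It ranged from 64.5 CPM in lymphoma 7 over a median of 140 CPM to 219 CPM in lymphoma 30, and had 72, 75 and 86.2 CPM in thymus. Lymphoma 7 alone lay below the thymus libraries and the other 20 lay above them, with a log2 fold change of 0.91 ± 0.24 (SE). Tinf2, which encodes the shelterin protein TIN2 at telomeres, ranged from 37.3 CPM in lymphoma 20 to 103 CPM in lymphoma 12 around 69.1 CPM, against 93.4, 98.4 and 92.8 CPM in thymus. Lymphoma 12 was the single one above the thymus range, the log2 fold change was -0.51 ± 0.19 (SE), and the call held under 18 of 33 other settings. Parp2, a DNA break sensor, Tep1, a telomerase-associated protein, and Parp4 of the vault particle had log2 fold changes of 0.31, 0.09 and -0.38, none past the threshold. Tinf2 overlaps Gmpr2 on the opposite strand over 4512 bp, and no source used here gives the strand of counting.

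Of 5 metabolic and lipid-modifying enzyme genes, 2 were higher and 1 lower. Abhd4, which encodes a lipase that acts on N-acyl phospholipids, had the largest log2 fold change of the 60 genes, 1.56 ± 0.44 (SE). It ranged from 7.65 CPM in lymphoma 34 over a median of 19.1 CPM to 43.7 CPM in lymphoma 10, against 5.92, 7.34 and 6.83 CPM in thymus. All lymphomas were above thymus, lymphoma 34 only just, and the call was lost without the first thymus library. Rabggta, the alpha subunit of the enzyme that attaches lipid anchors to Rab proteins, was lower in every lymphoma: 16.8 to 43.2 CPM around 28.4 CPM, against 45.4, 65.3 and 45.6 CPM in thymus. The difference was a log2 fold change of -0.85 ± 0.18 (SE). Esd, a formylglutathione hydrolase, had 0.41 ± 0.16 (SE), while Sucla2, a subunit of the succinyl-CoA ligase of the citric acid cycle, and Pnp, a purine salvage enzyme, had 0.31 and 0.24 without passing. For Esd, the call without single libraries or with other methods is not given. Pnp overlaps Pnp2, a near-identical copy, over 8758 bp, so its counts are uncertain.

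Of 7 cell cycle and growth control genes, 1 was higher and 1 lower. Cdca2 encodes a protein that brings a phosphatase to chromosomes as mitosis ends. It ranged from 64.9 CPM in lymphoma 7 over 118 CPM to 196 CPM in lymphoma 30, against 60.4, 50.4 and 73.3 CPM in thymus, a log2 fold change of 0.96 ± 0.24 (SE). Most lymphomas (19) lay above the thymus range and none below it, and the call was lost without the second thymus library. Reep4, which clears membrane from dividing chromosomes, ranged from 47.3 to 81.7 CPM around 58.4 CPM in lymphomas and had 78.7, 88.5 and 85.5 CPM in thymus. The log2 fold change was -0.49 ± 0.12 (SE), with 20 lymphomas below the thymus range, and this call too was lost without the second thymus library. Rb1 ranged from 41 CPM in lymphoma 20 over a median of 101 CPM to 181 CPM in lymphoma 12, against 142, 100 and 144 CPM in thymus. The groups overlapped for Rb1, with 10 lymphomas below and 3 above the thymus range, and its log2 fold change of -0.32 ± 0.24 (SE) did not pass. Rb1 and Rcbtb2 overlap on opposite strands over 24171 bp. Since the strand of counting is not given, it is not known whether reads in the shared stretch were told apart. Lats2, a kinase of the Hippo growth pathway, spanned 3.22 CPM in lymphoma 16 to 105 CPM in lymphoma 7 around 28.9 CPM, against 16.5, 14.1 and 16.2 CPM in thymus. A log2 fold change of 0.96 ± 0.66 (SE) for Lats2 did not pass, with 15 lymphomas above and 6 below thymus. Cenpj, a centriole assembly protein, ranged from 21 to 73.3 CPM around 34.9 CPM in lymphomas and had 51.4, 42.2 and 51.4 CPM in thymus. Its log2 fold change of -0.40 ± 0.22 (SE) passed the threshold only without lymphoma 12 (its highest sample), alone or together with 3 others. Ppp2r2a, a regulatory subunit of a major phosphatase, and Haus4, of the augmin complex that branches spindle microtubules, had 0.23 and -0.02.

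Of 9 proteasome, folding and secretory genes, 1 was higher, and the median log2 fold change was 0.15. Ctsb, the lysosomal protease cathepsin B, ranged from 316 CPM in lymphoma 2 over a median of 479 CPM to 1284 CPM in lymphoma 12, against 237, 261 and 231 CPM in thymus. All lymphomas lay above thymus, with a log2 fold change of 1.16 ± 0.32 (SE). Ctsb is also strong in macrophages, whose markers were higher in lymphomas. Lymphoma 19 had the highest macrophage marker sum, 688 CPM, and ranked 4 for Ctsb, and lymphoma 14 had the lowest, 186 CPM, and ranked 20. Lymphoma 12, first for Ctsb, ranked 18 of 21 for that sum, at 220 CPM. The part of macrophages in the level of Ctsb was not tested. The proteasome gene Psmb5 (0.28), the activator subunits Psme1 (0.15) and Psme2 (0.22), the glycosylation enzyme subunit Dad1 (0.11), the membrane proteins Tm9sf2 (0.35) and Itm2b (0.15), the chaperone Dnajc3 (-0.11) and Ubac2 (-0.14) did not pass; the values are log2 fold changes.

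Of 5 cell death and stress genes, 1 was lower. Rnf31, the catalytic subunit of the linear ubiquitin chain assembly complex, ranged from 33.5 to 69.1 CPM around 42.2 CPM in lymphomas, against 57.8, 65.9 and 52.6 CPM in thymus. Its log2 fold change was -0.42 ± 0.16 (SE), 18 lymphomas lay below thymus, and the call held under 13 of 33 other settings. Bcl2l2, a relative of Bcl2 that restrains apoptosis, ranged from 2.11 CPM in lymphoma 34 over 18.5 CPM to 56.2 CPM in lymphoma 9, against 11.8, 13.3 and 11.4 CPM in thymus. With 17 lymphomas above and 4 below thymus, its log2 fold change of 0.86 ± 0.65 (SE) did not pass. Ripk3, Bnip3l, a receptor for the removal of mitochondria, and Stk24, a stress kinase, had 0.53, 0.00 and -0.24, none past the threshold. Of 6 RNA processing genes none passed in either direction: Osgep, a tRNA-modifying enzyme, Hnrnpc, which packages new transcripts, Zc3h13 of the m6A writer, Acin1 and Ngdn had log2 fold changes between -0.15 and 0.14, and Pabpn1, which binds poly(A) tails in the nucleus, had -0.30.

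Of 8 signalling, cytoskeleton and surface genes, only Lrp10 passed, although the median log2 fold change was -0.62. Lrp10, a receptor-related membrane protein, ranged from 146 to 308 CPM around 211 CPM in lymphomas and had 303, 308 and 278 CPM in thymus. Lrp10 had a log2 fold change of -0.48 ± 0.15 (SE), with 19 lymphomas below the thymus range, and the call was lost without any 1 of the 3 thymus libraries. Gpr183 encodes an oxysterol receptor that guides lymphocyte migration. It had a median of 1.98 CPM in lymphomas, with 0.443 CPM in lymphoma 15 and 34.7 CPM in lymphoma 7 as extremes, against 13.8, 14.1 and 10.9 CPM in thymus. In 20 of 21 lymphomas it lay below thymus; the fitted log2 fold change of -1.54 ± 0.88 (SE) did not pass with edgeR unless lymphoma 7 was left out, and it passed with DESeq2 and with limma on TPM. Gpr183 lies inside Ubac2 on the opposite strand over 12645 bp. Rcbtb2, a protein with RCC1-like repeats, ranged from 54 CPM in lymphoma 16 to 395 CPM in lymphoma 12 around 123 CPM, against 362, 357 and 324 CPM in thymus. For Rcbtb2 a log2 fold change of -1.11 ± 0.45 (SE) did not pass, although 19 lymphomas lay below thymus, and it passed without lymphoma 7, 12, 32 or 35 and with limma on TPM. Dock9, an activator of Cdc42, ranged from 0.666 CPM in lymphoma 14 to 37.9 CPM in lymphoma 32 around 7.55 CPM, against 19.5, 18.2 and 19.1 CPM in thymus, a log2 fold change of -0.75 ± 0.76 (SE). Kif13b, a kinesin, ranged from 36.5 to 102 CPM around 47.3 CPM in lymphomas, against 76.5, 68.5 and 74.1 CPM in thymus, with a log2 fold change of -0.50 ± 0.20 (SE). Lymphoma 7 was the highest for Kif13b, which passed without lymphoma 7 or 12 and with limma on filtered TPM. Lcp1, an actin bundler of leukocytes, ranged from 415 to 1351 CPM around 704 CPM in lymphomas, against 491, 427 and 477 CPM in thymus, and its log2 fold change of 0.66 ± 0.26 (SE) did not pass, nor did it under 24 of 33 other settings. Rap2a, a small GTPase, had -0.03 ± 0.56 (SE).

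On a scale per transcript length (TPM), Itm2b had the highest median in lymphomas of the 60 genes, 655 TPM, ahead of Psme1 (528 TPM), Pabpn1 (456 TPM), Psmb5 (378 TPM) and Lcp1 (362 TPM). In thymus Itm2b had 803, 757 and 761 TPM and Psme1 had 486, 573 and 490 TPM. The lowest lymphoma medians were those of Dock9 (1.59 TPM), Gpr183 (1.66 TPM) and Bcl2l2 (7.24 TPM). Between lymphomas, the ranges of neighbours in this order overlapped, with 468 to 1685 TPM for Itm2b and 401 to 734 TPM for Psme1.

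Within 2 of the pairs of members that start back to back, 1 gene was higher in lymphomas and its partner was not. Abhd4 and Dad1 lie on opposite strands with 84 bp between them, and Apex1 and Osgep with 75 bp between them. Abhd4 exceeded Dad1 in its log2 ratio to thymus in 21 of 21 lymphomas, with a median difference of 1.39. Apex1 exceeded Osgep in 20 of 21, with a median difference of 0.77, the exception being lymphoma 7. Osgep ranged from 41.8 to 74.2 CPM around 49.5 CPM in lymphomas, against 43.1, 56 and 46.4 CPM in thymus. Dad1 ranged from 95.3 to 227 CPM around 117 CPM in lymphomas, against 109, 132 and 118 CPM in thymus. Both partners thus overlapped the thymus range. Other pairs under 1000 bp apart that start back to back were Rnf31 and Psme2 (595 bp) and Cenpj and Parp4 (194 bp). Rnf31 and Psme2 had log2 fold changes of -0.42 and 0.22, and only Rnf31 passed, as lower. Cenpj and Parp4 had like values, -0.40 and -0.38, and neither passed. Supt16 and Chd8 lie 735 bp apart on the same strand, with log2 fold changes of 0.50 and -0.09.

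**Figure D2:**
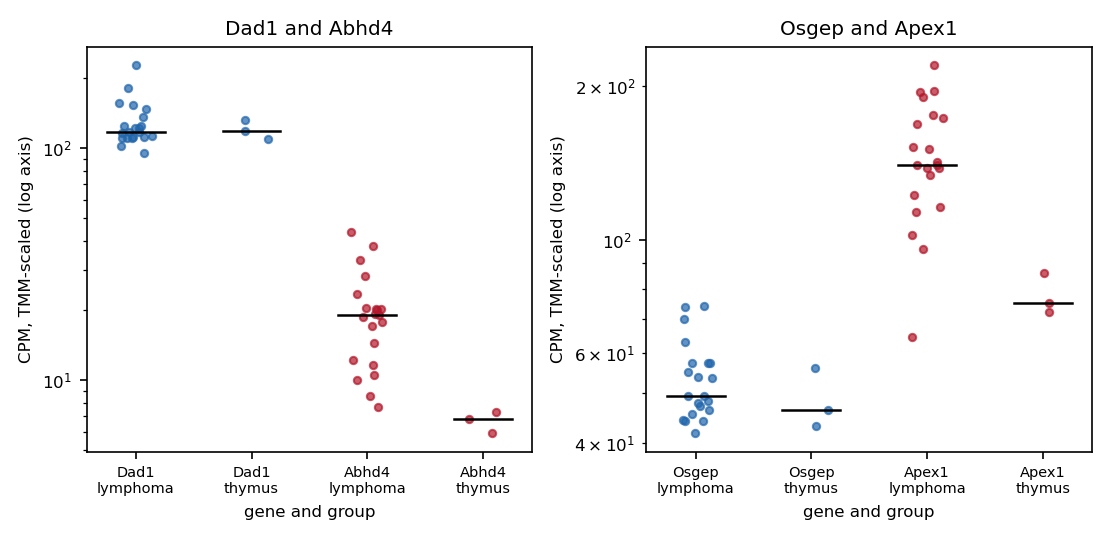
CPM of Dad1 and Abhd4 and of Osgep and Apex1 in 21 lymphomas and 3 normal thymus libraries, with 1 point per library on a log axis and black lines at medians. Dad1 and Osgep overlap between the groups, whereas every lymphoma is above thymus for Abhd4.

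RefSeq promoter windows (GRCm38.p6, 250 bases before to 50 after the gene start) matched 44 of the 60 genes. Shown 5′ to 3′ are the windows of Abhd4 and Apex1, the higher genes of these pairs, and of Prmt5, which was above thymus in every lymphoma. The windows of Abhd4 and Dad1 share 299 bases and those of Apex1 and Osgep share 155 bases, of 300 in each window. Capitals mark CACGTG and CCAAT, with ATTGG being CCAAT on the opposite strand.
Abhd4 chr14:54253879-54254178 (+): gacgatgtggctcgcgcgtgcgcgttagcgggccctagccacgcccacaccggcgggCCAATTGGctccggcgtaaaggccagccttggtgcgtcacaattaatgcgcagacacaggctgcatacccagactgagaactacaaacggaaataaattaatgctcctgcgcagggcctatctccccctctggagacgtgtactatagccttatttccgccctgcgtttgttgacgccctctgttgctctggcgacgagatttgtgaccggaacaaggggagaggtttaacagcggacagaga
Apex1 chr14:50924699-50924998 (+): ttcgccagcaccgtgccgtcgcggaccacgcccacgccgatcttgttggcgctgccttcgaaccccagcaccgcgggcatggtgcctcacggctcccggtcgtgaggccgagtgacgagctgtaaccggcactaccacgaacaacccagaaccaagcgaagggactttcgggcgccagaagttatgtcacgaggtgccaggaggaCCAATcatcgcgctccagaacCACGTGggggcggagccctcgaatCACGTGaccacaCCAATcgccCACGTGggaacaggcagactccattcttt
Prmt5 chr14:54517421-54517720 (−): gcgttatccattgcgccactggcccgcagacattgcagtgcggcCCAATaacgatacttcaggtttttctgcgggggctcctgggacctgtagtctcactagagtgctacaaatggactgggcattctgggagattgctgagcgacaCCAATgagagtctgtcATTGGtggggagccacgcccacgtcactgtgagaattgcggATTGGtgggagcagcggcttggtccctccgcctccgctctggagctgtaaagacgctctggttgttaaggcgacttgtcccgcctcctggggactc
The Apex1 window holds CACGTG 3 times and CCAAT 2 times, all within the part shared with Osgep, and Prmt5 holds CCAAT 4 times. In Abhd4 the 2 CCAAT matches overlap in 1 stretch. CACGTG was in 6 of the 44 windows (13.6%) and in 9.8% of the 9980 windows of tested genes. CCAAT, counted on both strands, was in 18 of 44 (40.9%) and in 38.6% of the 9980. A match says that the letters are there and nothing about the factor.

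Across libraries, the 60 genes were highest as a group in lymphomas 30, 12, 32 and 20. The median log2 ratio to the thymus mean over the 60 genes was 0.52 in lymphoma 30, 0.44 in lymphoma 12, 0.25 in lymphoma 32 and 0.23 in lymphoma 20. In the other 17 lymphomas it lay between -0.18 (lymphoma 16) and 0.13 (lymphoma 18), and in thymus libraries, each set against the other 2, between 0.00 and 0.02. The 377 other tested genes of chromosome 14 gave 0.41, 0.38, 0.23 and 0.23 in the same 4 lymphomas and -0.13 to 0.09 in the other 17. Genes of chromosome 15 had medians of at least 0.3 in 8 lymphomas, which include these 4, and the remaining chromosomes together had medians of -0.06 to 0.00. Set against the median of the other 20 lymphomas in place of thymus, 51 of 60 genes were above it in lymphoma 30, 50 in lymphoma 12, 51 in lymphoma 32 and 43 in lymphoma 20, against 17 to 31 in the other 17. These 4 lymphomas were named for the high medians of the same genes, so the counts only describe them, and the share over all genes is not given. On this scale the other chromosome 14 genes had medians of 0.42, 0.32, 0.23 and 0.23 in lymphomas 30, 12, 32 and 20. In the other 17 they had -0.14 to 0.06.

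**Figure D3:**
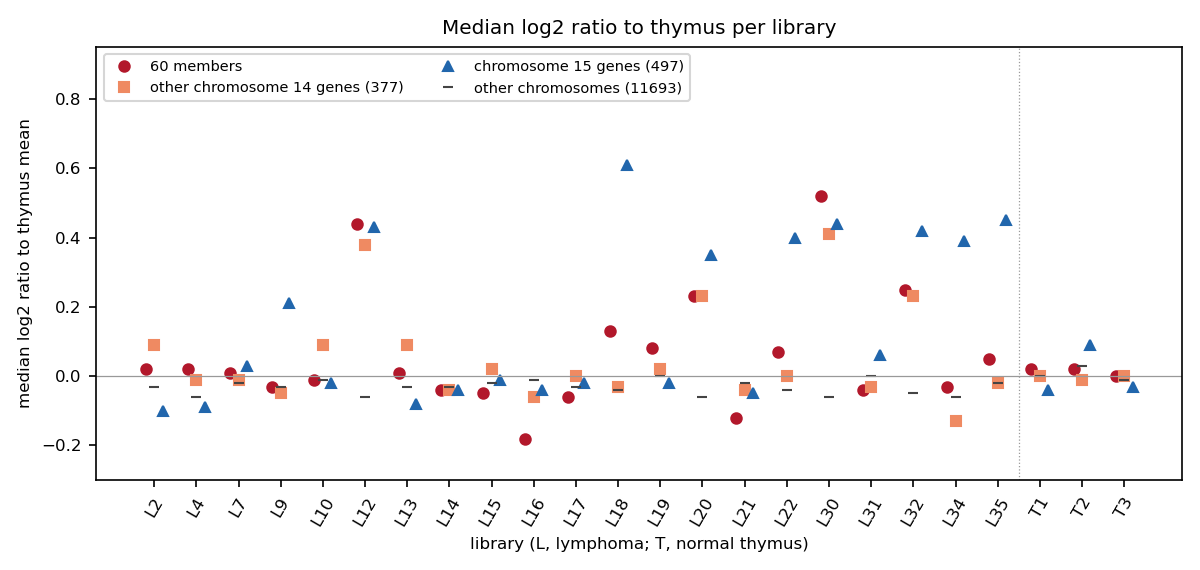
Median log2 ratio to the thymus mean per library for the 60 genes, other chromosome 14 genes, chromosome 15 genes and genes of other chromosomes, with lymphomas (L) left of thymus (T). Lymphomas 30 and 12 carry the highest medians of the 60 genes, 0.52 and 0.44, and the other chromosome 14 genes lie close to them there.

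Along the chromosome the 60 genes form 3 blocks: 30 genes at 50.8 to 57.8 Mb, 22 at 63.1 to 76.5 Mb and 8 at 118.9 to 122.2 Mb. In lymphoma 30 the block medians were 0.38, 0.61 and 0.53, and in lymphoma 32 they were 0.16, 0.44 and 0.41. In lymphoma 12 they were 0.38, 0.61 and 0.08, and in lymphoma 20 they were 0.26, 0.40 and -0.15. The last block holds Ipo5, Dock9, Gpr183 and Tm9sf2 among its 8 genes. Other tested genes of the same stretches (62, 62 and 6) had medians of 0.17, 0.32 and 0.25 in lymphoma 30, of 0.03, 0.12 and 0.43 in lymphoma 32, of 0.18, 0.37 and -1.02 in lymphoma 12 and of 0.18, -0.02 and 0.22 in lymphoma 20. For the 6 genes of the last stretch, medians in the other 17 lymphomas ran from -1.01 (lymphomas 14 and 19) to 0.04 (lymphoma 2). Outside these stretches, the 163 other tested genes before the first member had medians of 0.59, 0.48, 0.37 and 0.40 in lymphomas 30, 12, 32 and 20. Between the middle and last block, 47 other tested genes had 0.23, 0.36, 0.22 and 0.08 in the same order. Over the 60 genes again, the other 17 lymphomas had block medians of -0.12 to 0.15 in the first block, -0.05 to 0.24 in the middle block and -0.56 to 0.15 in the last, where their middle value was -0.28. Lymphoma 30 had the highest level of the 21 for Apex1, Parp2, Prmt5, Ipo5, Xpo4, Xpo7, Cdca2, Esd, Sucla2 and Tm9sf2, and lymphoma 12 for Ctsb, Rb1, Rcbtb2, Chd8, Acin1, Parp4 and Bnip3l.

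**Figure D4:**
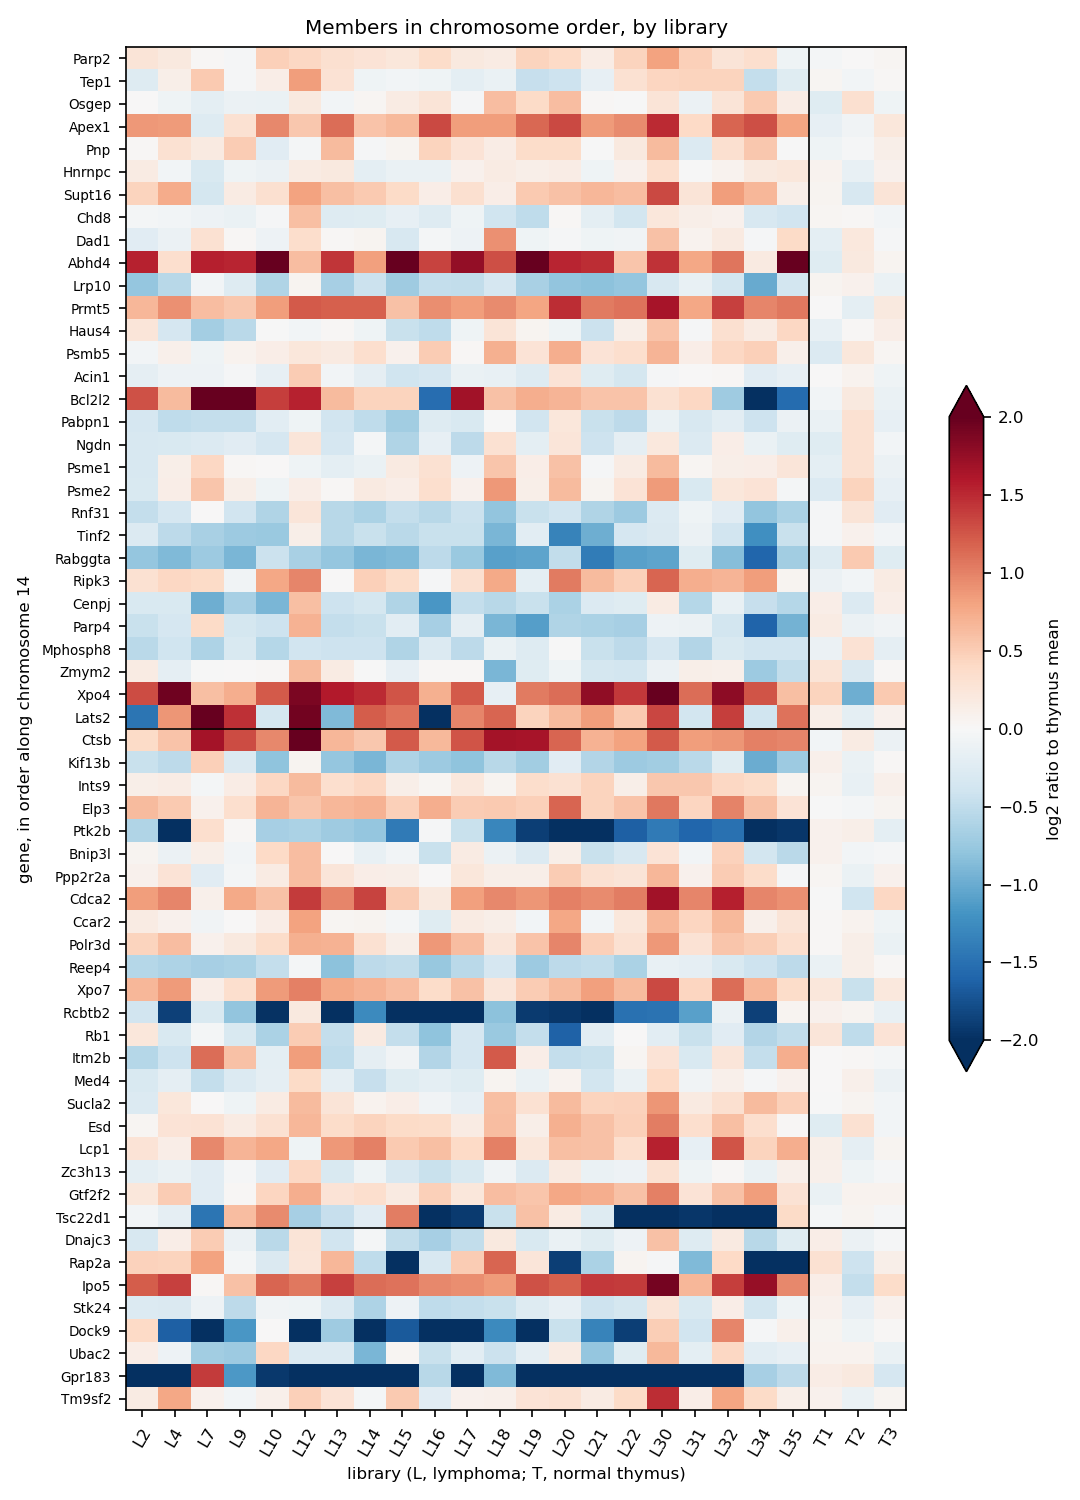
Log2 ratio to the thymus mean of the 60 genes, ordered along chromosome 14 with lines between the 3 blocks, in 21 lymphomas (L) and 3 thymus libraries (T); the colour scale ends at -2 and 2. Rows such as Prmt5, Ipo5 and Xpo4 are red across nearly all lymphomas, and Tsc22d1, Dock9 and Gpr183 change colour strongly between them.

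The genes differed widely in how much they varied between lymphomas. The SD of log2 levels over the 21 lymphomas had a median of 0.31 for the 60 genes and 0.40 for all genes tested, and over the thymus libraries 0.10 and 0.14. The steadiest were Hnrnpc and Mphosph8, at 0.16 each, among 14 genes under 0.25. In 11 genes it was above 0.5: Tsc22d1 (1.51), Dock9 (1.45), Gpr183 (1.37), Ptk2b (1.35), Bcl2l2 (1.16), Lats2 (1.14), Rap2a (1.06), Rcbtb2 (0.87), Abhd4 (0.65), Itm2b (0.57) and Xpo4 (0.54). Tsc22d1 spanned 3.24 CPM in lymphoma 34 to 113 CPM in lymphoma 15, against 54.6, 57.2 and 55.2 CPM in thymus. Lymphoma 34 was also the lowest for Bcl2l2, Ptk2b, Rap2a and Abhd4.

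By Ikzf1 set, 10 genes were higher and 4 lower in mutated lymphomas against thymus (13.1%, 12.9% and either way 26.0% of all genes tested), and 18 were higher and 8 lower in unmutated lymphomas against thymus (18%, 17.3% and 35.4%). Both comparisons use the same 3 thymus libraries. Those past the threshold in the unmutated set and not with all lymphomas together were Parp2, Supt16, Psmb5, Ripk3, Sucla2 and Lcp1, which were higher, and Kif13b and Ptk2b, which were lower. Pabpn1 was lower in the mutated set and did not pass with all lymphomas. Lymphomas 20, 30 and 32 belong to the unmutated set and lymphoma 12 to the mutated set; without those 4, chosen after seeing the data, the unmutated count was 12 higher and 10 lower (17.4% and 15.4% of all genes), and Parp2, Supt16, Polr3d, Psmb5, Ripk3 and Lcp1 no longer passed there. In the mutated set it was 11 higher and 9 lower (14.6% and 13.4% of all genes).

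Set directly against unmutated lymphomas, 1 gene was higher in mutated lymphomas, Ptk2b, and 1 lower, Sucla2, where 2.43% and 2.95% of all genes tested passed (5.38% either way). Ptk2b encodes a tyrosine kinase of the focal adhesion kinase family that acts below antigen and chemokine receptors. It ranged from 38 CPM in lymphoma 4 over a median of 141 CPM to 275 CPM in lymphoma 7 among mutated lymphomas, against 3.18 CPM in lymphoma 34, 64.5 CPM and 87.8 CPM in lymphoma 18 among unmutated ones, and 226, 229 and 200 CPM in thymus. All but 2 of the 11 mutated lymphomas (lymphomas 4 and 15) lay above every unmutated one, and the log2 fold change was 1.40 ± 0.36 (SE). Against thymus it was -0.52 ± 0.51 in the mutated set and -1.92 ± 0.48 (SE) in the unmutated set. Sucla2 ranged from 58.1 to 109 CPM around 73.8 CPM in mutated lymphomas, against 79.6 to 129 CPM around 97.2 CPM in unmutated ones, and 69.8, 72 and 68.3 CPM in thymus. Its log2 fold change between the sets was -0.41 ± 0.10 (SE), with lymphoma 12 the highest of the mutated set and lymphoma 30 of the unmutated set. Without lymphomas 12, 20, 30 and 32 Sucla2 stayed past the threshold at -0.41 ± 0.08 (SE), and Ptk2b, at 1.54 ± 0.45 (SE), did not.

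**Figure D5:**
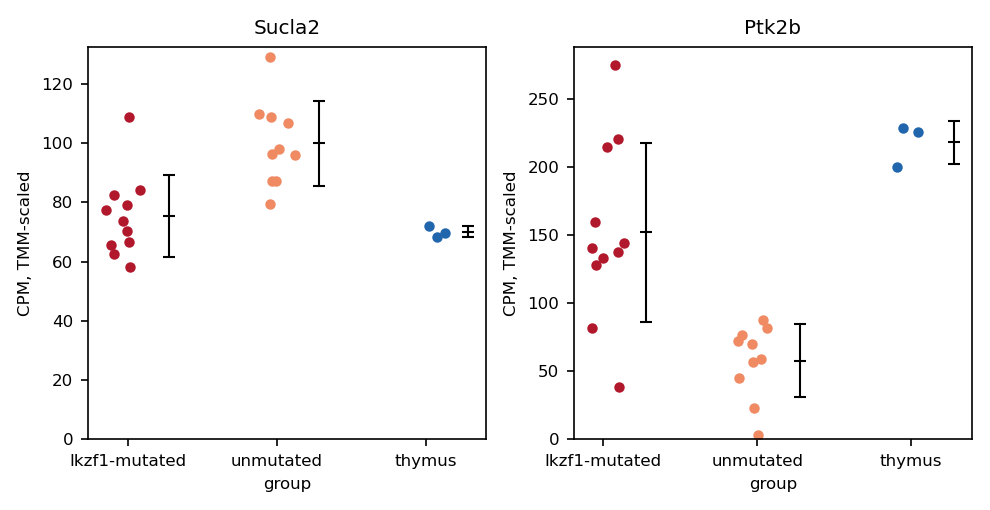
CPM of Sucla2 and Ptk2b in 11 Ikzf1-mutated lymphomas, 10 unmutated lymphomas and 3 normal thymus libraries, with 1 point per library and means with SD beside them. For Ptk2b most mutated lymphomas sit above every unmutated one, with thymus at 200 to 229 CPM, and for Sucla2 the sets overlap between 79.6 and 109 CPM.

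Genes that work with the members but lie elsewhere were taken from lists of complexes and pathways, which held 115 genes that could be used. Of these, 40 were higher (34.8%) and 10 lower (8.7%) in lymphomas, with a median log2 fold change of 0.29, where 15.4% of all genes tested passed each way. These lists too were drawn up with earlier results of these data known, so nothing is read from the counts. Adjusted p values are from edgeR's quasi-likelihood test. Beside Ipo5, Xpo4 and Xpo7, 7 of 11 other importins and exportins were higher and none lower, among them Xpot, the tRNA exportin, at 189 ± 52.4 CPM in lymphomas and 69 ± 11.1 CPM in thymus (SD), a log2 fold change of 1.45 (adjusted p = 0.00023). Ipo7 had 1.18 (adjusted p = 0.00103) and Kpnb1, the main import receptor, 0.82 (adjusted p = 0.00127). Beside Prmt5, its cofactor Wdr77 was higher by 0.85 (adjusted p = 0.00363), as was the adaptor Clns1a, while Riok1 was at -0.07. Beside Tinf2, 4 of 5 shelterin genes were lower and none higher: Pot1a at -0.59 (adjusted p = 0.00206), Acd at -0.58, Terf2 at -0.36 and Terf1 at -0.38. Terf1 passed only just (adjusted p = 0.0497), and its call under other settings is not given. Acd and Terf2 lost their calls without the second thymus library. Beside Apex1, 2 of 8 base excision repair genes were higher, Parp1 (0.87, adjusted p = 0.00179) and Lig3 (0.72), and 1 lower, the repair polymerase Polb (-0.99, adjusted p = 0.00139).

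Beside Ints9, 5 of 8 Integrator genes were higher, with Ints2 at 0.98 (adjusted p = 2.77e-05), Ints5 at 0.68 and Ints4 at 0.51. Beside Dad1, 4 of 6 subunits of the oligosaccharyltransferase were higher, with Stt3a at 0.66 (adjusted p = 0.000187). Of 12 proteasome core genes 5 were higher, with Psma3 at 0.62 (adjusted p = 0.00109), whereas Psmb5 itself did not pass. Among genes of RNA polymerase III, the enzyme of Polr3d, Polr3e was higher, at 0.95 (adjusted p = 0.00139). Suclg2, which pairs with the same alpha subunit as Sucla2, was higher by 1.28 (adjusted p = 0.00101), and Suclg1, that alpha subunit, had 0.30 without passing. Of 5 Hippo genes 3 were higher, with Sav1 at 1.13 (adjusted p = 0.00252); the other 2, Stk3 and Mob1a, lost their calls under most or many other settings. Among the m6A writer genes, Wtap fell by 0.39 on the log2 scale (adjusted p = 0.000305). None of the partners of Rnf31, Osgep, Ppp2r2a, Rabggta, Rb1 or Gtf2f2 passed, and for Mediator 1 of 11 was higher and 3 lower. Single genes were higher beside Supt16 (Ssrp1, 0.45), Acin1 (Rnps1, 0.49), Mphosph8 (Pphln1, on chromosome 15, 0.84), Ripk3 (Ripk1, 0.77) and Psme1 and Psme2 (Psme3, 0.70), and 2 of 4 Elongator genes were higher beside Elp3, Elp2 at 0.38 and Elp4 at 0.51. Pphln1 was the only HUSH gene that could be used. Fam208a, another HUSH gene, lies on chromosome 14 and so was left out, and it was lower, with a log2 fold change of -0.73. Ssrp1 and Rnps1 lost their calls without the first or the second thymus library, as did Clns1a, and Elp2 and Lig3 without the second. Elp4 lost its call without any 1 thymus library, with unscaled library totals and with limma on TPM. Of 7 augmin genes beside Haus4, Haus6 was higher (0.65) and Haus3 lower (-0.58). The call of Haus6 was lost without the second or the last thymus library, and that of Haus3 without any 1 of them.

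The genes whose levels over the 21 lymphomas followed the mean log2 ratio of the 60 genes most closely all lay on chromosome 14. They were Sec24c (Pearson's r = 0.82, Spearman's rho = 0.62), Tm9sf1 (0.81 and 0.56), Spata13 (0.79 and 0.59), Prkcd (0.79 and 0.65) and Fut11 (0.76 and 0.37). Without lymphomas 12 and 30, which lie farthest from the median, r was 0.61, 0.58, 0.64, 0.59 and 0.49 for these genes. Of the 50 highest correlations 37 belonged to chromosome 14 genes, which are 3.33% of the genes tested, and 7 of them to members, led by Bnip3l (0.76). Each member was taken out of the mean it was compared with; the median r was 0.41 for the 60 genes and 0.31 for other chromosome 14 genes, with 22 of the 60 above 0.5 and 4 below 0. The points share libraries, and no test was made.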

How the data were processed

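The authors sequenced poly(A) RNA of 3 thymus samples and 21 lymphomas. Labels do not name animals, so a p-value reflects spread among samples, which may be technical. Per the submitters' processing notes, use was made of edgeR, SAMtools, HTSeq 0.6.1, HISAT2 2.0.1 and cutadapt 1.9.1, on GRCm38.p6. Their settings, the strand of counting and the calling of Ikzf1 mutations are not given in the sources read. Deposited by the authors were whole-number counts of 24 libraries, a TPM table, and filtered count tables, whose column names alone gave the Ikzf1 sets.

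Members and gene lists were chosen with earlier results of these data known. Genes were placed with GENCODE M21 on GRCm38. Differences were tested on the counts with edgeR 4.0.16 in R 4.3.3: TMM, filterByExpr (13121 genes), glmQLFit and glmQLFTest, Benjamini-Hochberg adjustment over all genes, threshold 0.05. The lymphomas as 1 group were fitted beside thymus, and the sets in a separate model with 3 groups. SE is the fold change over the root of the F statistic. CPM use TMM-scaled library sizes, and ratios use log2(CPM + 0.5) minus the thymus mean (for a thymus library, the mean of the other 2). Values by sample are given for the 12 members with the highest and the 12 with the lowest fold change, Rb1, and members past the threshold between sets; Osgep, Dad1, Tsc22d1 and others were named beside these after their values were seen. Alternatives were other scalings, no filter, DESeq2 1.42.0, limma 3.58.1 on log2(TPM + 1), log2(TPM + 0.1) and unfiltered TPM, and leaving out each library. In a simulation of lymphomas against thymus over 12978 genes, 41% of changes of 2-fold and 73% of those of 4-fold were recovered, and 4.2% of calls were false. For the mutated set against thymus (12979 genes) these were 41%, 62% and 5.5%, and for the unmutated set (12986 genes) 29%, 68% and 8.49%. Between the sets (12971 genes) they were 53%, 77% and 1.52%. Each simulation changed 200 genes, whereas 4044 were called in lymphomas against thymus, so these rates need not hold for the reported calls. Results on some withheld items are not reported here.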

Additional observations from a re-analysis of the deposited data

Results flagged for a closer look

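Ptk2b and Sucla2 stood out because the difference between the Ikzf1 sets was itself tested and passed the threshold. Ptk2b was higher in mutated than in unmutated lymphomas, with a log2 fold change of 1.40, and Sucla2 was lower, with a log2 fold change of -0.41. The list had been drawn up with this contrast in view, so these are values and not independent support. Dixon's test, run for 27 members or medians, noted no lymphoma of the unmutated set, and chance marks about 1 in 20 such groups. That outcome depends on the scale and does not extend to log2 ratios to thymus. There, lymphoma 34 had -5.89 for Ptk2b, with -3.21 in lymphoma 21 as the next lowest of the unmutated set. Rb1 had -1.62 in lymphoma 20, with -0.75 in lymphoma 18 as the next lowest.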

How the results depend on the processing

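In lymphomas against thymus, none of the 25 members with values by sample changed sign under the alternatives run. Against thymus, 10 members were lower with limma on log2(TPM + 1) and 10 on log2(TPM + 0.1), where 19.8% and 19.2% of all genes were. Other chromosome 14 genes that were higher numbered 48 with unfiltered log2(TPM + 1), where 7.47% of all genes were higher. In the main fit they numbered 77, with 15.4% of all genes. Leaving out lymphomas 12, 20, 30 and 32 together, 11 members were lower (14.9% of all genes). Without those 4 lymphomas, 9 members were lower in the mutated set (13.4% of all genes), and between the sets 0 were higher with edgeR (0.783% of all genes). With DESeq2, 3 members were higher and 4 lower between the sets (4.96% and 4.76% of all genes). On log2(TPM + 1) the median fold change of all genes was -0.08 in place of 0.07, and 38.6% of calls were higher in place of 50.0% (40.5% with 0.1 added and 29.8% unfiltered). Leaving out 1 library at a time, members higher against thymus numbered 6 to 14 (7.15% to 16.9% of all genes) and lower 1 to 9 (7.26% to 17%); in the mutated set 2 to 10 (5.34% to 14.9%) and 1 to 9 (5.42% to 14.9%); in the unmutated set 9 to 20 (10.7% to 19.2%) and 2 to 10 (10.7% to 18.5%); between sets 1 to 2 (0.953% to 4.90%) and 1 to 4 (1.34% to 4.42%). Partners numbered 21 to 43 and 3 to 12, and other chromosome 14 genes 32 to 83 and 20 to 46. The fewest calls over all genes came without a thymus library (2278, 1929 and 2545 without replicates 1, 2 and 3, against 4044), where 2 thymus libraries remain. The member median per lymphoma moved to at most 0.53 and at least 0.48 in lymphoma 30, and 0.42 to 0.47 in lymphoma 12. No paired analysis was possible because the lymphoma and thymus titles share fewer than 2 numbers and the Ikzf1 sets share none.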
